A study of Saccharomyces cerevisiae with 12 samples.

Results

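Genes of ceramide and sphingoid base synthesis were followed in yeast exposed to alachlor, a chloroacetanilide herbicide. The genes were chosen by name, namely LCB1, LCB2, TSC10, SUR2, LAC1, LAG1, YPC1, YDC1, ORM1 and ORM2, and make up 10 of the 5449 genes measured. Each was read by 1 probe set that the manufacturer's naming marks as neither shared nor cross-hybridizing. The list was drawn up with the log2 changes of these arrays at both doses in view, so those values count as used in the choice. Their changes are therefore given as a description, and an adjusted p places a gene among all genes of the array without being an independent check. The set did not move as a whole: 4 members rose at 1 dose or both, 3 fell at 200 mg/L and 3 did not pass at either dose. Among all genes 3.05% rose at 110 mg/L, and 10% rose and 7.80% fell at 200 mg/L.

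All 12 cultures were Saccharomyces cerevisiae BY4741, a haploid strain whose mating type is a, in exponential growth in minimal medium. They were sampled after 2 h and read on Affymetrix Yeast Genome 2.0 arrays, with 3 biological replicates in each of 4 groups. In the LOEC experiment, as the submitters call it, 110 mg/L alachlor was set against its own untreated cultures, the LOEC controls. In the IC20 experiment 200 mg/L was set against separate untreated cultures, the IC20 controls. Dose and experiment thus cannot be told apart when the responses are compared. What limits the model is that all groups share 1 laboratory strain and 1 time point.

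Sphingolipids of yeast are built on long-chain amino alcohols, the sphingoid bases. Serine palmitoyltransferase joins serine to an acyl-CoA in the endoplasmic reticulum, and a reductase turns the product into dihydrosphingosine, which can be hydroxylated to phytosphingosine. Ceramide synthase attaches a very long fatty acid to either base, ceramidases release the base again, and Orm proteins hold back the first enzyme. Ceramide then goes on to the inositol-containing sphingolipids of the plasma membrane.

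The values are the authors' intensities on a linear scale, and changes are differences of mean log2 intensity fitted in limma over all genes. The number of arrays limits their precision. A gene passed at an adjusted p under 0.05 (Benjamini-Hochberg over 5449 genes, two-sided), and rose or fell refers to genes that passed. Array medians ran from 1561.3 to 1613, and replicates correlated across genes at r = 0.993 to 0.998. The probe sets of LEU2, URA3 and MET17, loci deleted in BY4741, read at most 228.8, while HIS3, of which the strain lacks a part, read 6721 to 9552. The mating type a gene MFA1 read 15471 to 18303, against 106.4 to 197.7 for the alpha-cell gene STE3. In the IC20 experiment the deviation of an array from its group mean followed coding length, where Spearman's rho over the genes lay between -0.488 and 0.570, while the LOEC arrays lay between -0.0777 and 0.152. Among all genes 166 rose and 66 fell at 110 mg/L, and 546 rose and 425 fell at 200 mg/L. The splits after median centring were 126 against 94 and 462 against 547.

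Of the 10 genes, SUR2, LAC1 and YPC1 rose at 110 mg/L and 0 fell, where 3.05% of all genes rose and 1.21% fell. At 200 mg/L the same 3 genes and YDC1 rose, where 10% of all genes rose, and TSC10, ORM1 and LAG1 fell, where 7.80% fell. The 3 genes that rose at both doses stand beside 2.81% of all genes that did so. The median log2 change of the 10 was 0.021 at 110 mg/L and 0.030 at 200 mg/L, against 0.0052 and 0.00021 over all genes, so the set as a whole did not move in 1 direction. The largest change of any member was the 1.41-fold rise of YPC1 at 200 mg/L. The plot of intensities by array shows these levels, and the plot of changes sets them against the range of all genes.

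**Figure D1:**
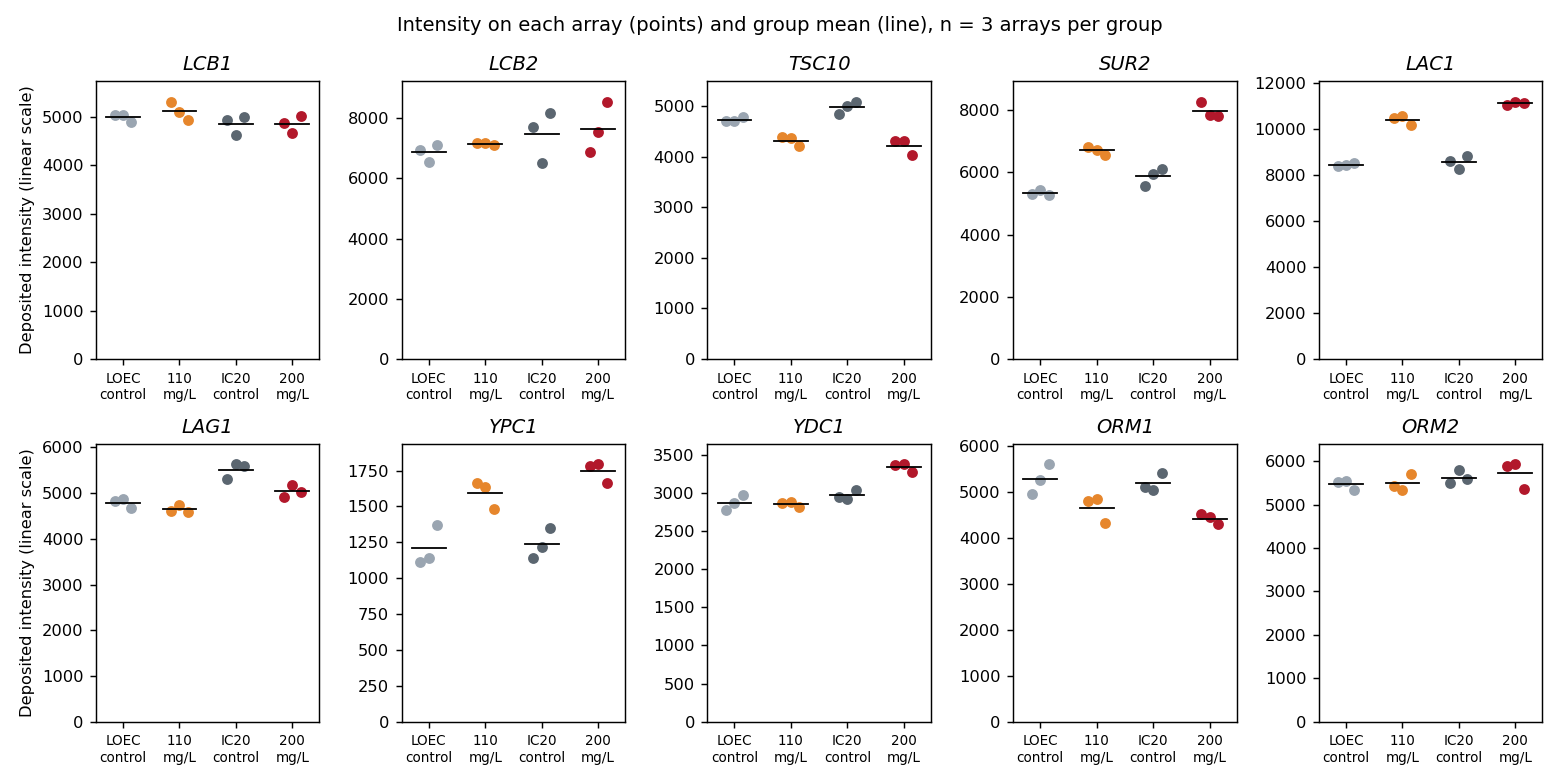
Deposited intensity on a linear axis from 0 (points, 1 per array) and group mean (line) for each of the 10 genes in the 4 groups of 3 arrays. SUR2, LAC1 and YPC1 stand above their controls in both experiments, TSC10 and ORM1 stand below, and LCB1, LCB2 and ORM2 overlap with theirs.

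The first enzyme of the route, serine palmitoyltransferase, is a dimer of the products of LCB1 (YMR296C) and LCB2 (YDR062W), and neither gene passed at either dose. LCB1 read 5025, 5038 and 4886 in the LOEC controls and 5308, 5102 and 4926 at 110 mg/L. It read 4939, 4624 and 4993 in IC20 controls and 4860.2, 4657 and 5018 at 200 mg/L. Treated and control arrays of LCB1 overlapped in both experiments. The log2 change was 0.036 (95% interval -0.067 to 0.14, adjusted p = 0.815 by limma) at 110 mg/L and -0.0020 (-0.11 to 0.10, adjusted p = 0.984) at 200 mg/L.

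LCB2, the catalytic subunit, read 6949, 6539 and 7118 in the LOEC controls and 7163, 7185 and 7107 at 110 mg/L. The IC20 arrays read 7716, 6514 and 8177 in controls and 6863, 7531 and 8551 at 200 mg/L. The spread within its IC20 groups (SD 859 and 850.5) was thus wider than any shift of the mean. The lowest LCB2 readings of that experiment were on control array 2 and treated array 1 and the highest on treated array 3, the arrays whose deviations followed coding length most (rho -0.464, -0.488 and 0.570). LCB2 has the longest coding region of the 10, at 1686 bases, and LCB1 has 1677. On these 3 arrays LCB2 deviated from its group mean by -0.19, -0.15 and 0.17 in log2, and LCB1 by -0.069, 0.0052 and 0.051. The source of the LCB2 spread was not tested. The log2 change of LCB2 at 200 mg/L, 0.035 (95% interval -0.17 to 0.24, adjusted p = 0.829 by limma), leaves room for a shift in either direction. It was 0.019 with the length trend removed. TSC3, which codes for the small activating subunit of the enzyme, changed on the log2 scale by 0.082 and 0.13 without passing (limma adjusted p = 0.565 and 0.160).

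TSC10 (YBR265W) encodes the reductase that makes dihydrosphingosine, and it was lower with alachlor in both experiments. It read 4706, 4712 and 4790.1 in the LOEC controls and 4389, 4363 and 4213 at 110 mg/L. The corresponding IC20 values were 4846, 4998 and 5093 in controls and 4308, 4306 and 4035 at 200 mg/L. All treated arrays lay below all controls of their experiment, which happened in 12.2% of all genes at 110 mg/L and 14.5% at 200 mg/L. TSC10 fell to 0.847 of its control level at 200 mg/L, from 4979 ± 125 to 4216 ± 157 (SD, n = 3; log2 change of -0.24 with SE 0.040, adjusted p = 0.00201 by limma). The log2 change of -0.13 at 110 mg/L did not pass (adjusted p = 0.106), while it passed with the length trend removed (-0.14, adjusted p = 0.0271).

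SUR2 (YDR297W), the hydroxylase that converts dihydrosphingosine to phytosphingosine, rose at both doses. It read 5315, 5427 and 5263 in the LOEC controls and 6832, 6724 and 6563 at 110 mg/L. It read 5579.9, 5936 and 6107 in IC20 controls and 8278, 7849 and 7808 at 200 mg/L. The groups did not overlap in either experiment, as in 15.4% and 16.3% of all genes in the upward direction. The rise was 1.26-fold at 110 mg/L, from 5335 ± 84.0 to 6706 ± 135 (SD, n = 3; log2 change of 0.33 with SE 0.044, adjusted p = 0.00125 by limma). It was 1.36-fold at 200 mg/L, from 5874 ± 269 to 7978 ± 260.0 (SD, n = 3; log2 change of 0.44 with SE 0.044, adjusted p = 4.69e-05 by limma). Among all 5449 genes its change ranked 184 from the top at 110 mg/L and 188 at 200 mg/L. The IC20 controls of SUR2 all read above the LOEC controls, as in 10.9% of all genes, by a log2 difference of 0.14 (adjusted p = 0.186).

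Ceramide synthase has 2 related catalytic subunits in yeast, encoded by LAC1 and LAG1, and the 2 genes went different ways. LAC1 (YKL008C) read 8399.8, 8418 and 8523 in the LOEC controls and 10498, 10549.6 and 10187 at 110 mg/L. It read 8630.1, 8267 and 8819 in IC20 controls and 11033, 11191 and 11134 at 200 mg/L. Every treated array lay above every control of either experiment. Treated arrays lay above the controls of their own experiment in 15.4% of all genes at 110 mg/L and 16.3% at 200 mg/L. LAC1 rose 1.23-fold at 110 mg/L, from 8447 ± 66.6 to 10412 ± 196 (SD, n = 3; log2 change of 0.30 with SE 0.037, adjusted p = 0.000567 by limma). The rise at 200 mg/L was 1.30-fold, from 8572 ± 280.1 to 11120 ± 79.9 (SD, n = 3; log2 change of 0.38 with SE 0.037, adjusted p = 3.98e-05 by limma). Its controls of the separate experiments differed by a log2 value of 0.021 (95% interval -0.060 to 0.10).

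LAG1 (YHL003C) read 4819, 4869 and 4678 in the LOEC controls and 4603, 4747 and 4581 at 110 mg/L, with overlap and a log2 change of -0.044 (95% interval -0.13 to 0.043, adjusted p = 0.692 by limma). It read 5307, 5629 and 5586 in IC20 controls and 4925, 5167 and 5026 at 200 mg/L. These treated arrays lay below their own controls, as in 14.5% of all genes, but above all 3 LOEC controls. LAG1 fell to 0.915 of its IC20 control level (log2 change -0.13, SE 0.040, adjusted p = 0.0470 by limma), just inside the threshold. The call was lost when any of 11 of the 12 arrays was left out, the exception being IC20 control array 1, with adjusted p from 0.0397 to 0.134 over the 12 fits. LAG1 was also the 1 member whose controls differed between the experiments, with IC20 controls 1.15-fold above LOEC controls (adjusted p = 0.0497), where 0.587% of all genes passed in that direction. That call was lost in each of the 12 fits with an array left out (adjusted p 0.0501 to 0.188). The IC20 controls enter both comparisons, so these 2 results of LAG1 share the same arrays.

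**Figure D2:**
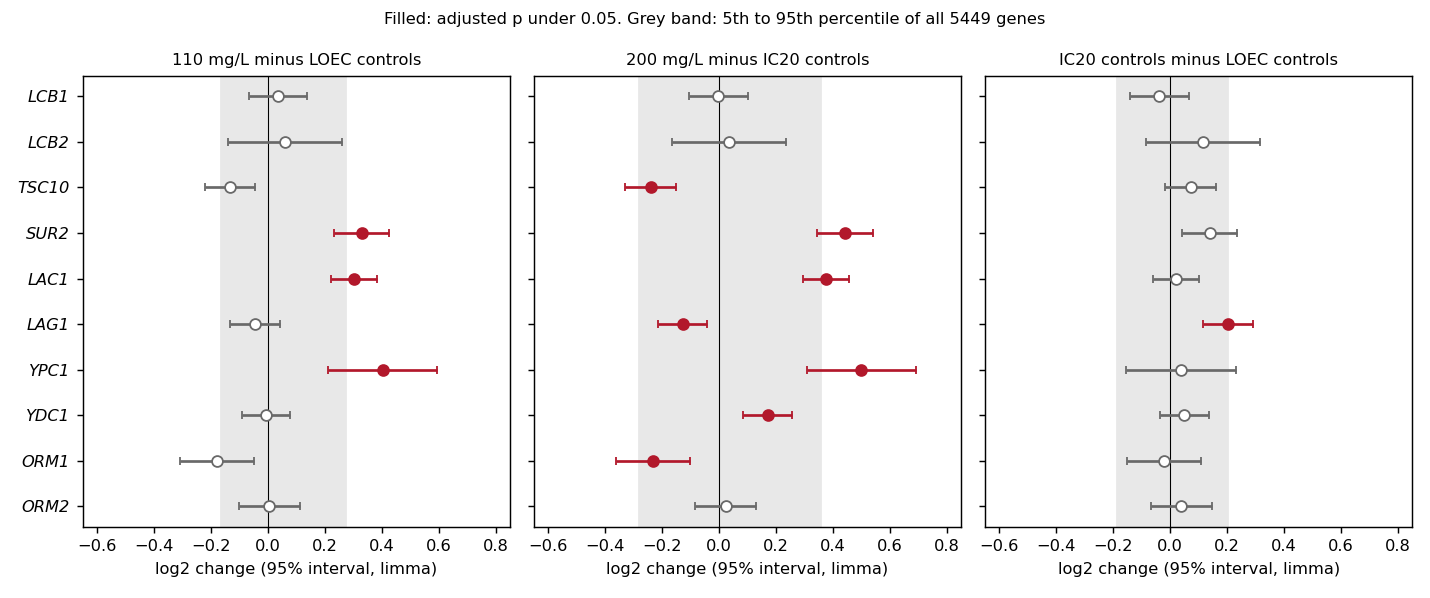
Log2 change of each gene (point) with its 95% interval from limma (bar) for 110 mg/L against LOEC controls, 200 mg/L against IC20 controls and between the control groups, 3 arrays a group. Filled points passed at adjusted p under 0.05, and the grey band spans the 5th to 95th percentile of 5449 genes, from -0.16 to 0.28 at 110 mg/L and -0.28 to 0.36 at 200 mg/L. SUR2, LAC1 and YPC1 lie above the band in both experiments, and ORM1 lies just below it at 110 mg/L.

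On each array the ratio of LAC1 to LAG1 can be taken without any scaling between arrays. Relative to the control mean of its experiment, this log2 ratio was 0.37, 0.33 and 0.33 at 110 mg/L, where the LOEC controls spanned -0.029 to 0.047. It was 0.53, 0.48 and 0.51 at 200 mg/L, where the IC20 controls spanned -0.084 to 0.063. The responses of the 2 genes thus differed by a log2 value of 0.35 (SE 0.027) and 0.50 (SE 0.046), with no overlap in either experiment. The ratios of related members are built on the values that were in view when the genes were chosen, so they are given as a description with no test. LIP1, which codes for the subunit that both enzymes need, was 5819 ± 77.6 against 6327 ± 302 at 110 mg/L and 5555 ± 231 against 6181 ± 344 at 200 mg/L (SD, n = 3). Neither of its log2 changes, -0.12 and -0.15, passed (limma adjusted p = 0.296 and 0.0727). The change at 200 mg/L passed under 5 alternatives, among them median centring (-0.18, limma adjusted p = 0.0464), and did not under 19.

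The ceramidases YPC1 and YDC1 release sphingoid bases from ceramide and can also run in reverse. They are known to prefer phytoceramide and dihydroceramide, respectively. YPC1 (YBR183W) read 1111, 1143 and 1371 in the LOEC controls and 1659.9, 1635 and 1485 at 110 mg/L. It read 1143, 1221 and 1349.7 in IC20 controls and 1784, 1793 and 1663 at 200 mg/L. The groups were apart in both experiments, as upward in 15.4% and 16.3% of all genes, although control array 3 read highest of the controls in each. YPC1 rose 1.32-fold at 110 mg/L, from 1208 ± 142 to 1593 ± 94.8 (SD, n = 3; log2 change of 0.40 with SE 0.087, adjusted p = 0.0260 by limma). The rise at 200 mg/L was 1.41-fold, from 1238 ± 105 to 1747 ± 72.8 (SD, n = 3; log2 change of 0.50 with SE 0.087, adjusted p = 0.00251 by limma). The call at 110 mg/L was lost without LOEC control array 1 or 2 (adjusted p = 0.111 and 0.126) or 110 mg/L array 1 or 2 (adjusted p = 0.108 and 0.0870).

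YDC1 (YPL087W) read 2770, 2865 and 2973 in the LOEC controls and 2865, 2879 and 2819 at 110 mg/L, and the treated arrays lay inside the range of the controls. It read 2946, 2919.6 and 3042 in IC20 controls and 3369, 3375 and 3280.2 at 200 mg/L. All treated arrays of that experiment lay above all its controls, as in 16.3% of all genes. YDC1 rose 1.13-fold at 200 mg/L, from 2969 ± 64.4 to 3341 ± 53.2 (SD, n = 3; log2 change of 0.17 with SE 0.038, adjusted p = 0.0115 by limma), and had a log2 change of -0.0070 at 110 mg/L (adjusted p = 0.972). The call at 200 mg/L was lost with only the 6 arrays of the experiment (adjusted p = 0.0840), with the replicate block (0.0926) and with 200 mg/L array 1 and IC20 control array 2 left out (0.0642). The difference of these responses, 0.18 on the log2 scale, did not pass (SE 0.054, adjusted p = 0.207 by limma). The log2 ratio of YPC1 to YDC1 was above that of all controls on all 6 treated arrays, by 0.41 (SE 0.080) at 110 mg/L and 0.33 (SE 0.060) at 200 mg/L.

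ORM1 and ORM2 encode the related membrane proteins that bind and restrain serine palmitoyltransferase until they are phosphorylated. ORM1 (YGR038W) read 4961, 5260.4 and 5606 in the LOEC controls and 4800.4, 4847 and 4334 at 110 mg/L. It read 5102, 5050.2 and 5422 in IC20 controls and 4514, 4461 and 4298 at 200 mg/L. Every treated array read below every control of its experiment, as in 12.2% of all genes at 110 mg/L and 14.5% at 200 mg/L. ORM1 fell to 0.852 of its control level at 200 mg/L, from 5191 ± 201 to 4424 ± 113 (SD, n = 3; log2 change of -0.23 with SE 0.059, adjusted p = 0.0209 by limma). That call was lost without IC20 control array 3, 200 mg/L array 2 or 200 mg/L array 3 (adjusted p = 0.0713, 0.0506 and 0.0635). At 110 mg/L the log2 change was -0.18 and did not pass (SE 0.059, adjusted p = 0.136), with the LOEC controls of ORM1 spread by an SD of 323.

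ORM2 (YLR350W) read 5528, 5539.6 and 5348 in the LOEC controls and 5433, 5342 and 5698 at 110 mg/L. It read 5489.6, 5789 and 5593 in IC20 controls and 5887, 5929 and 5356 at 200 mg/L. The groups overlapped in both experiments, and neither log2 change passed, at 0.0047 (95% interval -0.10 to 0.11) and 0.024 (-0.083 to 0.13; limma adjusted p = 0.986 and 0.778). The first of these turned to -0.023 with median centring. The log2 ratio of ORM1 to ORM2 was lower with treatment by 0.18 (SE 0.10) at 110 mg/L, where the groups overlapped, and by 0.25 (SE 0.052) at 200 mg/L, where they did not. The plot of ratios shows all 3 pairs.

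**Figure D3:**
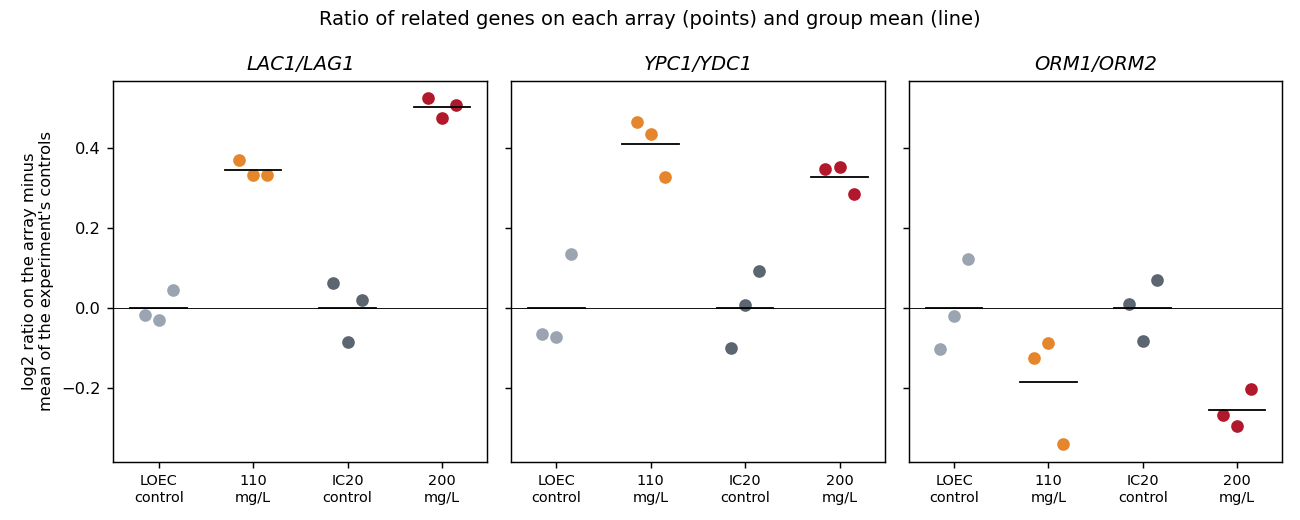
Log2 ratio of 2 related genes on each array (points) and group mean (line), after subtracting the mean of the controls of the same experiment, for LAC1/LAG1, YPC1/YDC1 and ORM1/ORM2 with 3 arrays a group. The first 2 ratios lie above all controls on all 6 treated arrays. ORM1/ORM2 overlaps with controls at 110 mg/L and lies below them at 200 mg/L.

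The comparison of responses asks whether a gene answered differently to 200 mg/L than to 110 mg/L. Of the 10 genes 0 passed by limma, where 1.25% of all genes passed. Under an unadjusted limma p of 0.05 stood 1 of the 10 (YDC1) and 576 of all 5449 genes, so YDC1 is no excess. The 5 genes with changes above 0.1 in size at both doses, SUR2, LAC1, YPC1, TSC10 and ORM1, all had the larger change at 200 mg/L. Changes over all genes also spread wider at 200 mg/L (5th to 95th percentile -0.28 to 0.36) than at 110 mg/L (-0.16 to 0.28). Nothing particular to the 5 is therefore read from this. The difference was 0.11 (95% interval -0.025 to 0.25) for SUR2, 0.074 (-0.040 to 0.19) for LAC1 and 0.096 (-0.18 to 0.37) for YPC1. For TSC10 it was -0.11 (-0.23 to 0.018) and for ORM1 -0.051 (-0.23 to 0.13), so each interval includes 0.

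Pattern over the arrays was compared by the root mean square difference of log2 values, each gene centred on its own mean over the 12 arrays. Within the set the closest were TSC10 and ORM1 (0.057), followed by LAC1 and SUR2 (0.084). The rule for likeness starts from the member with the largest change at 200 mg/L, which is YPC1. The genes outside the set nearest to YPC1 were YDL124W (0.049), PRX1 (0.060), SRL3 (0.062) and HSP42 (0.073), against a median of 0.27 over all genes. PRX1 encodes a mitochondrial peroxiredoxin and HSP42 a small heat shock protein, and the log2 changes of the 4 at 200 mg/L were 0.50, 0.56, 0.51 and 0.45.

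Further genes of the sphingolipid route, 44 in all, were listed by function. At 110 mg/L 1 rose and 0 fell, and at 200 mg/L 7 rose and 3 fell, with median log2 changes of 0.0094 and 0.0039. The shares over all genes were 3.05% and 1.21% at 110 mg/L and 10% and 7.80% at 200 mg/L, so nothing particular to the list is read from these counts. The split at 200 mg/L was 4 against 4 after quantile normalization and 5 against 4 after median centring. The count of 10 dropped to 6 without IC20 control array 2, IC20 control array 3 or 200 mg/L array 2, and to 5 without 200 mg/L array 3. The plot of both doses shows these genes beside the 10 members.

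**Figure D4:**
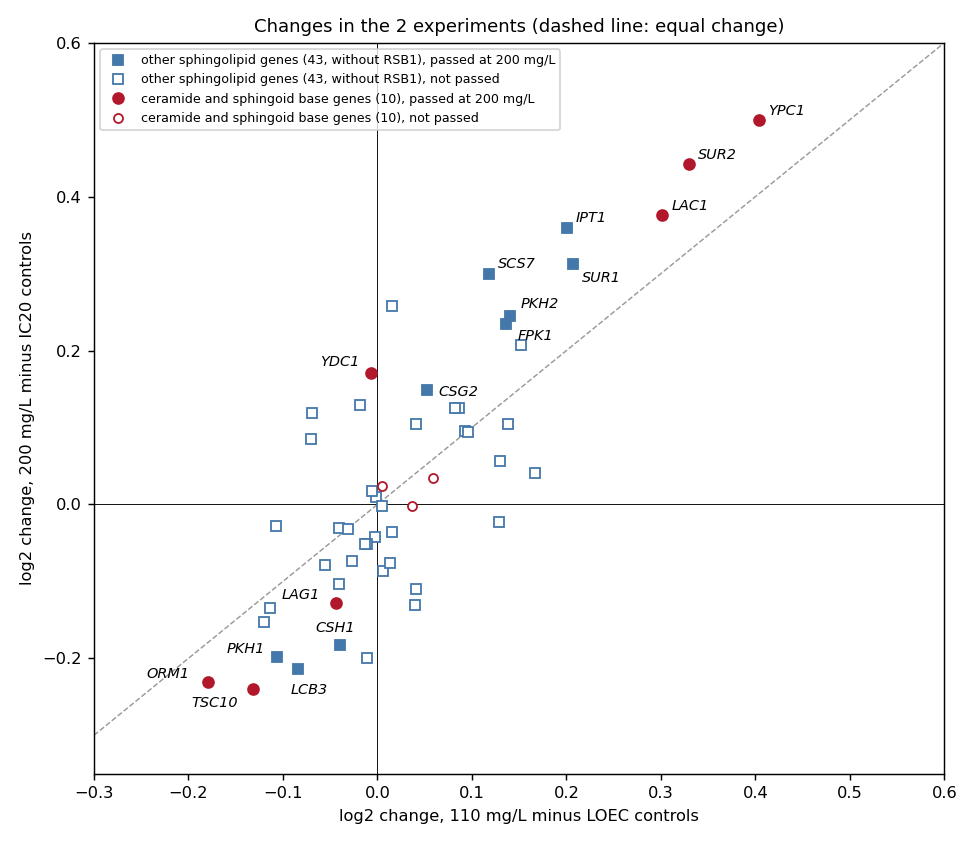
Log2 change at 200 mg/L against log2 change at 110 mg/L for the 10 ceramide and sphingoid base genes (circles) and 43 other sphingolipid genes (squares), each a difference of means of 3 arrays against 3. Filled symbols passed at 200 mg/L, the dashed line marks equal change, and RSB1 lies outside the axes at 3.21 and 4.13. YPC1, SUR2 and LAC1 are farthest to the upper right, with IPT1, SUR1 and SCS7 next at 200 mg/L among the genes that passed.

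Among genes that handle free sphingoid bases, RSB1, which encodes a transporter that moves them out of the cell, was the 1 that rose at both doses. It read 222, 227 and 225 in the LOEC controls and 2058, 2151 and 2019.7 at 110 mg/L. It read 216, 239 and 242 in IC20 controls and 4339, 4118 and 3737 at 200 mg/L. These controls lay near 228.8, the highest reading of the deleted loci. The rises are therefore given over the higher of 228.8 and the control mean, as at least 9.07-fold and at least 17.5-fold (limma adjusted p = 1.57e-10 and 9.87e-12). LCB3, a phosphatase of sphingoid base phosphates, fell at 200 mg/L to 3272 ± 217 from 3789 ± 74.0 (SD, n = 3; log2 change -0.21, adjusted p = 0.0174 by limma). That call was lost under 6 alternatives. Among them were the fits without IC20 control array 3 or 200 mg/L array 3 (limma adjusted p = 0.0540 and 0.0514) and with only the 6 arrays of the experiment (0.0948). The LCB3 arrays at 200 mg/L, at 3059 to 3493, overlapped with LOEC controls of 3202 to 3466. The kinases LCB4 and LCB5, the phosphatase YSR3, the lyase DPL1, the dehydrogenase HFD1 and the dioxygenase MPO1 did not pass at either dose, with log2 changes of -0.11 to 0.093 at 110 mg/L and -0.13 to 0.12 at 200 mg/L.

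Of the 5 genes of very long fatty acid elongation, ELO2, ELO3, IFA38, PHS1 and TSC13, 0 passed at either dose by limma. At an unadjusted p under 0.05 stood 0 of the 5, beside 890 and 1716 of all 5449 genes at 110 and 200 mg/L. The log2 changes of the 5 stayed within -0.031 to 0.0052 at 110 mg/L and -0.073 to 0.018 at 200 mg/L. SCS7, which hydroxylates the fatty acid of ceramide, rose 1.23-fold at 200 mg/L, from 8983 ± 252 to 11057 ± 258 (SD, n = 3; log2 change 0.30, adjusted p = 0.000514 by limma). At 110 mg/L it read 8667 to 9261, above all LOEC controls, as in 15.4% of all genes, but did not pass (log2 change 0.12, limma adjusted p = 0.153). The IC20 controls, at 8734 to 9238, overlapped with these arrays.

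Of 7 genes of complex sphingolipids, 3 rose and 1 fell at 200 mg/L, beside 10% and 7.80% of all genes, and 0 passed at 110 mg/L. At 110 mg/L limma put 3 of the 7 at an unadjusted p under 0.05, and 890 of all 5449 genes. IPT1, which makes the final inositol-rich sphingolipid, rose 1.28-fold, from 4029.9 ± 226 to 5171 ± 300.4 (SD, n = 3; log2 change 0.36, adjusted p = 0.00101 by limma). Its arrays at 110 mg/L read 4994, 4849.7 and 4912 against controls of 4329, 4356 and 4161, and it did not pass (log2 change 0.20, adjusted p = 0.0666) but did with quantile normalization (0.20, adjusted p = 0.0490). SUR1 and CSG2, partners in mannosylation of inositol phosphorylceramide, rose at 200 mg/L by log2 changes of 0.31 and 0.15 (adjusted p = 0.00247 and 0.0285). CSH1, the relative of SUR1 with the same partner, fell (-0.18, adjusted p = 0.0348). The inositol phosphorylceramide synthase genes AUR1 and KEI1 stood at log2 changes of 0.0093 and 0.10 at 200 mg/L and did not pass. CSG2 lost its call with median centring (adjusted p = 0.0619) and, like CSH1, without some single arrays.

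Among 19 genes listed under signalling to Orm proteins and ceramide synthase, 2 rose and 1 fell at 200 mg/L, shares near the 10% and 7.80% of all genes. None of them passed at 110 mg/L by limma (0 of 19). At an unadjusted limma p under 0.05 stood 1 of the 19 and 890 of all 5449 genes. PKH1 and PKH2 encode related kinases that activate Ypk1 and respond to sphingoid bases. PKH2 rose (log2 change 0.25, limma adjusted p = 0.0348), PKH1 fell (-0.20, adjusted p = 0.0279), and FPK1, whose product activates lipid flippases, rose (0.23, adjusted p = 0.0409). The 3 calls were each lost without some single arrays, FPK1 without any of 11 of the 12. YPK1, whose product phosphorylates Orm proteins, read 2841 ± 170.5 in IC20 controls and 3060.3 ± 299 at 200 mg/L (SD, n = 3; log2 change 0.10, adjusted p = 0.337 by limma). NVJ2 and SVF1, of ceramide transfer, did not pass at either dose.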

How the data were processed

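RNA of 12 cultures in 4 groups was read on 1-colour biotin-labelled arrays, per the labels' protocols. The authors deposited linear intensities, 1 per probe set and array. The submitters' processing notes name Affymetrix Expression Console without a version or role, and the summarization and normalization steps are not given in the sources used here.

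Log2 of the intensities was taken with no pseudocount. Of 5716 probe sets, 5498 were tied to 1 gene by GEO's platform annotation, 0 to several and 218 to none, the last left out. Symbols were updated through the RefSeq table (R64, names and coding lengths only), in which each of the 5449 genes was found. Where a gene had more than 1 probe set (47 genes), the brightest on average was kept. A model with 4 group means was fitted in limma 3.58.1 (R 4.3.3) on all 12 arrays, with 8 residual and 2.73 prior degrees of freedom, and tested with eBayes for 4 contrasts, adjusted over all genes. Ratios of related genes were taken per array. A test by regrouping the arrays was run on them, but its p-values are not used, since the genes were chosen with these values in view. Intervals are 95% intervals from limma. In the test on simulated data with 5449 genes, the fit called 38.8% (110 mg/L) and 35.8% (200 mg/L) of genes given a log2 change of 0.2, and 92.4% and 87.9% of those given 0.5. The noise was independent and normal, and 67, 67 and 66 genes were changed by 0.2, 0.3 and 0.5. In the data 971 genes passed at 200 mg/L, and the length trend of the IC20 arrays was not simulated. The cut-off depends on how many genes change, so these shares need not hold for the data.

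Members, other gene lists, naming rule and alternatives were chosen with earlier results of these data known. The rule named all members, each listed pathway gene that passed at a dose, RSB1, IPT1, LIP1 and YPK1, and the 4 genes most like the member with the largest change at 200 mg/L. Other genes of the lists are given after their values were seen. Same-numbered arrays of control and treatment did not deviate together (r across genes from -0.322 to -0.00984 in the LOEC and -0.615 to 0.144 in the IC20 experiment), so replicate numbers were not treated as pairs. The labels do not state whether they are pairs, and these correlations cannot settle it. A planned search of promoters for a regulatory motif was not run, since sequences were not used here.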

Additional observations from a re-analysis of the deposited data

Results flagged for a closer look

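The response of RSB1, the exporter of sphingoid bases, was larger at 200 mg/L than at 110 mg/L by 0.92 on the log2 scale (limma, SE 0.087, adjusted p = 0.000252), with all 3 arrays at 200 mg/L above all 3 at 110 mg/L. Its controls lay near the highest reading of the deleted loci, so the size is not exact, and dose and experiment cannot be told apart. No other listed sphingolipid gene passed that test.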

How the results depend on the processing

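LAC1 and SUR2 at both doses, and YPC1 and TSC10 at 200 mg/L, passed in the same direction under all alternatives run, including each fit with an array left out. The calls of YPC1 at 110 mg/L and of YDC1, ORM1 and LAG1 at 200 mg/L were lost under some, as were most pathway calls. Over all named genes, 407 of 525 repeats of a call kept it, and 118 lost it without a change of direction. With 3 arrays a group, most log2 changes of 0.2 were not called in the simulated data, a share that need not hold for the data. Array weights, whose estimation stopped before convergence, ran from 0.284 to 7.24 and moved the counts at 110 mg/L most. The cause of these shifts was not tested.

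At 110 mg/L 3 members passed, 7 with array weights. At 200 mg/L 7 passed, 4 with the replicate block and 4 at adjusted p under 0.01. For the difference of responses 0 passed, 1 with array weights. For the controls 1 passed, 2 with array weights and 0 with quantile normalization, median centring, the dimmest 20% left out, all probe sets, adjusted p under 0.01, the coding length trend removed or IC20 control array 2 and 200 mg/L array 1 left out together, and 0 in every fit with an array left out. Pathway calls at 110 mg/L numbered 1, against 2 with quantile normalization, the dimmest left out or an intensity trend, 3 with the 6 arrays of the experiment, the length trend removed or those 2 arrays left out, and 19 with array weights (1 to 2 with an array left out). At 200 mg/L they numbered 10, against 4 with the 6 arrays of the experiment, the replicate block, adjusted p under 0.01 or those 2 arrays left out (5 to 10 with an array left out). Among all genes 232 passed at 110 mg/L, against 2132 with array weights, 97 with the replicate block and 108 at adjusted p under 0.01 (113 to 266 with an array left out, lowest without LOEC control array 2, and 133, 117, 154 and 135 without LOEC control array 1 and 110 mg/L arrays 1, 2 and 3). At 200 mg/L 971 passed, against 444 with the 6 arrays, 519 with the replicate block and 481 at adjusted p under 0.01. For the difference 68 passed, against 393, 21 and 32 with array weights, the block and adjusted p under 0.01 (39 to 68 with an array left out). The block calls at 200 mg/L of the members were LAC1, SUR2, YPC1 and TSC10, and at 110 mg/L LAC1 and SUR2. The labels do not say whether replicate numbers pair cultures. It therefore cannot be told whether a call lost under the block reflects a weaker effect or a block that the design lacks.

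Signs turned only for log2 changes that did not pass. At 110 mg/L ORM2 was -0.0047 with quantile normalization, -0.023 with median centring and -0.023 with array weights, under which YDC1 was 0.0019, CSH1 0.037, LCB2 at 200 mg/L -0.036 and the YPC1 difference -0.0030. LAC1 between controls was -0.013 with the length trend removed. With an array left out the ranges that crossed 0 were, at 110 mg/L, -0.022 to 0.024 for ORM2, -0.032 to 0.019 for YDC1 and -0.071 to 0.0047 for CSH1. At 200 mg/L they were -0.036 to 0.026 for LCB1, -0.061 to 0.11 for LCB2 and -0.0020 to 0.071 for ORM2. For the difference they were -0.12 to 0.051 for LCB2 and -0.0067 to 0.067 for ORM2, and between controls -4.9e-06 to 0.047 for LAC1, -0.026 to 0.13 for YPC1 and -0.066 to 0.022 for ORM1.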
